A study of Homo sapiens with 6 samples.

Results

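The genes described here are 39 human genes of the hypoxia response, chosen by symbol among the 58676 genes of the deposited table. They hold the oxygen-sensing machinery of the hypoxia-inducible factors (HIF) and genes listed as hypoxia genes or HIF targets outside glycolysis. Whether each of them is a direct HIF target was not tested. The list was drawn up with results of these libraries in view, among them the differences between the replicate 3 libraries and the other 4, so that this contrast is given as a description with no test. Of the 39 genes, 38 reached a level of 1 in at least 3 of the 6 libraries and entered the test. The gene left out was RORA, which codes for a nuclear receptor and lay between 0.556 and 0.706.

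RNA sequencing of 2D-cultured A549 Rec (3 libraries) was compared with that of A549 MOCK (3 libraries). A549 is an established cell line from a human lung adenocarcinoma, grown here for 6 days in HG-DMEM medium with CS and methylcellulose. A549 Rec had received human recoverin cDNA, which codes for a calcium sensor of the retina, and A549 MOCK the empty plasmid, and per the study's methods A549 Rec was made with a retroviral vector and puromycin selection. Whether the lines are clones, and whether A549 MOCK was selected too, is not given in the sources used here. No oxygen level or hypoxic treatment is named in the labels, and nothing in the sources used here says whether same-group libraries came from separate cultures, so that the p-values measure only the spread between these samples.

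Levels below are rescaled TPM, that is reads per gene length scaled to 1000000 per library over the 58639 genes that are not encoded by the mitochondrial genome. The rescaling was made because the mitochondrial genes took 13.3% to 17.3% of the deposited TPM in the replicate 1 and 2 libraries, and 34.5% and 26.9% in A549 MOCK replicate 3 and A549 Rec replicate 3. These last libraries therefore stand apart before any gene is read. The paper's methods name both NovaSeq and GenoLab M sequencing and do not say which library went to which. A part of the instrument in the differences between libraries was not tested. The reads recovered from the TPM lay between 15183490 and 18572167 per library. RCVRN, the gene of recoverin, was listed at 0 in all A549 MOCK libraries and at 389.5, 390.0 and 464 in A549 Rec, as labelled. Epithelial markers were present (KRT8 2929 to 3352, CDH1 166 to 179), as was AKR1B10 (1831 to 3388), a gene known to be abundant in A549. EPCAM was low at 1.34 to 3.53, and the surfactant genes of alveolar type II cells lay at or below 0.496. Of the leukocyte markers, CD3E was at 0 and PTPRC at or below 0.10, while CD79A read 6.16 to 14.2.

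HIF is a pair of proteins, an oxygen-regulated alpha subunit (HIF1A or EPAS1) and a constant partner (ARNT). When oxygen is present, prolyl hydroxylases of the EGLN family mark the alpha subunit, the VHL ubiquitin ligase takes it up for degradation, and the asparagine hydroxylase HIF1AN keeps it from recruiting coactivators. When oxygen is short, the alpha subunit is kept and binds short DNA motifs with the core ACGTG or GCGTG beside its targets, which act on pH, vessels, mitochondria, collagen and metabolism. The control is mostly on protein stability, so that mRNA levels do not show the activity of HIF itself, and several inhibitors (EGLN3, for example) are themselves known targets.

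The letters that the factor reads were looked up in the promoters of the genes. As many of these genes were chosen as known targets of that factor, the shares below are not independent of the choice. RefSeq promoters (GRCh38.p14) matched 32 of the 39 genes, and the 250 bases before each start site were searched on both strands for ACGTG and for GCGTG. No promoter was matched for NDRG1, JMJD6, VEGFA, VHL, STC1, BNIP3L and LOXL2. The reverse complements are CACGT and CACGC, and the palindrome CACGTG counts on both strands. At least 1 promoter with ACGTG was found for 18 of 32 genes (56.2%), against 21.7% of the 27305 genes in the table. GCGTG was found for 18 of 32 genes (56.2%, against 36.2%), and either motif for 26 of 32 (81.2%, against 47.4%). A match is a description of these letters, not a bound site, and genes with several promoters have more bases to search. The 27305 genes were not matched to the list in base composition.

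The windows of 6 genes are printed 5′ to 3′ in the direction of the gene, with the matches in capitals. They were taken because these genes range from the even (BNIP3) to the most uneven (ANGPTL4) of the list. All 6 windows hold ACGTG, which was found for 18 of the 32 matched genes, so that they do not stand for the list in this respect. They are CA9 (chr9:35673678-35673927, plus strand), BNIP3 (chr10:131981924-131982173, minus strand), ANKRD37 (chr4:185396591-185396840, plus strand), PLOD2 (chr3:146161185-146161434, minus strand), ANGPTL4 (chr19:8363905-8364154, plus strand) and LOX (chr5:122078260-122078509, minus strand, the outermost of its start sites).
CA9: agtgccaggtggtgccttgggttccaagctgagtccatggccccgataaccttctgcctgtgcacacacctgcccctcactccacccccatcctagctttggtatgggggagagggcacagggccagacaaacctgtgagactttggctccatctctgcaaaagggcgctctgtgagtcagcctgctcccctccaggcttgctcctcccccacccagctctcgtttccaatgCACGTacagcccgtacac
BNIP3: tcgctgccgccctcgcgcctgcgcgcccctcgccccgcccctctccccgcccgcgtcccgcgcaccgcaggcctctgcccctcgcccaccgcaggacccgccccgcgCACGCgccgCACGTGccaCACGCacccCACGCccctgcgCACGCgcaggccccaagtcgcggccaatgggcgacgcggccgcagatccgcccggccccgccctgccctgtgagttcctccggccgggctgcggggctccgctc
ANKRD37: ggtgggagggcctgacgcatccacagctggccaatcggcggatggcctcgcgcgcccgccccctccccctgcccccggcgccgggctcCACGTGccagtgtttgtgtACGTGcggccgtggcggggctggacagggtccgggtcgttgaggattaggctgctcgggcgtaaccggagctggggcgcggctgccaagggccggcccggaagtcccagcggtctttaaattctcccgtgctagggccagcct
PLOD2: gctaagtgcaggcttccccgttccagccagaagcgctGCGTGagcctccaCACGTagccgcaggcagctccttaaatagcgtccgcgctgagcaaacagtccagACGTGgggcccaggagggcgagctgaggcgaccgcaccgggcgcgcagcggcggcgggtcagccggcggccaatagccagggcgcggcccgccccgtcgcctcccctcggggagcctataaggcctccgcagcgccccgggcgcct
ANGPTL4: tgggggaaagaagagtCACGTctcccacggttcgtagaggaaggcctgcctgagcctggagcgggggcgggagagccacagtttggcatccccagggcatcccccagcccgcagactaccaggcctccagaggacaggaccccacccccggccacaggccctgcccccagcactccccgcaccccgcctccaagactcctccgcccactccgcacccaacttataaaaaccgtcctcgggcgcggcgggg
LOX: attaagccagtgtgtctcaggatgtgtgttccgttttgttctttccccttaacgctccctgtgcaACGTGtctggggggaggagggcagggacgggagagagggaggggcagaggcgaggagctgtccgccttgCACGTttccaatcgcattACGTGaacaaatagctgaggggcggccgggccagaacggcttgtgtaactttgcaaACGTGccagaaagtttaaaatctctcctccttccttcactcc
The CA9 window holds its match close to the start site, whereas LOX holds several that are spread over the window. The window of EGLN3 held neither motif.

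The machinery was measured in full, and its members spanned a wide range of levels. HIF1A (chr14:61695513-61748259, GRCh38, plus strand) was the most abundant of the 39 genes and stood 75th by mean level among the 17999 tested genes. Its level was 1138, 1109 and 1373 in replicates 1, 2 and 3 of A549 MOCK, and 1153, 1117 and 1317 in those of A549 Rec. Values below keep this order. EPAS1, the gene of HIF-2 alpha, read 316, 319 and 369 in A549 MOCK, against 308, 304 and 434 in A549 Rec. For both alpha subunits the replicate 3 libraries were the highest of each group, and the groups overlapped. ARNT read 42.6, 39.7 and 44.6 against 41.7, 36.4 and 44.4, and thus lay far below its partners. HIF3A, the gene of another alpha subunit, was at or below 0.0549.

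VHL was at 55.4, 55.9 and 59.2 in A549 MOCK, against 55.7, 55.7 and 52.9 in A549 Rec. EGLN1, the gene of the main HIF prolyl hydroxylase (PHD2), read 122, 109 and 118 against 110.2, 108 and 129. HIF1AN read 27.3, 28.3 and 29.7 against 28.1, 28.3 and 30.6. These 3 genes varied by no more than 1.19 times between the lowest and the highest library. The other hydroxylase genes were low and uneven. EGLN2 read 2.79, 3.62 and 11.5 in A549 MOCK, against 4.16, 3.60 and 5.05 in A549 Rec, and EGLN3 read 15.4, 15.6 and 6.80 against 13.5, 14.2 and 9.39. EGLN2 was thus highest and EGLN3 lowest in replicate 3 of each group. For EGLN2 the step was large in A549 MOCK only, and in A549 Rec it rested on 113, 120 and 128 reads. EGLN2 rested on 80 to 277 reads and shares its place on chromosome 19 with the readthrough gene RAB4B-EGLN2, and EGLN3 lies across SPTSSA on the same strand in the deposited annotation, so that both values depend on how shared reads were counted.

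Among the targets, CA12 and CA9 code for membrane carbonic anhydrases that handle acid outside the cell. CA12 was the 148th most abundant tested gene, with 717, 714 and 532 in A549 MOCK, against 701, 692 and 689 in A549 Rec. CA9, a classical marker of hypoxic tumour cells, read 67.5, 76.4 and 85.6 against 73.2, 67.0 and 77.1. CA9 was detected in every library, with 491 to 567 reads.

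**Figure D1:**
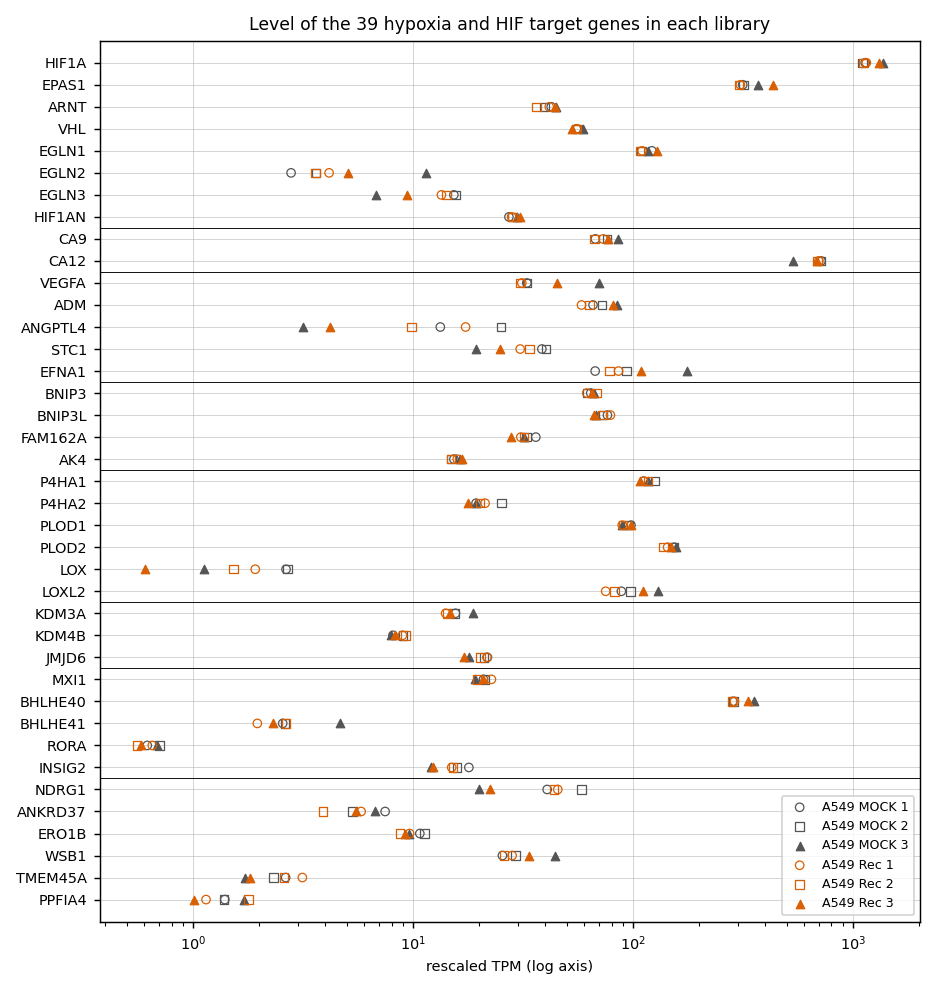
Level of each gene in each library (horizontal axis, rescaled TPM on a log scale), with the genes ordered by role and the libraries marked by colour for the group and by symbol for the replicate number. The points of most genes lie close together, and those of ANGPTL4, LOX and EGLN2 are the most spread.

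The genes for secreted and surface signals varied widely between libraries. VEGFA (chr6:43770184-43786487), the main growth factor of blood vessels, read 33.0, 32.9 and 69.9 in A549 MOCK, against 31.3, 30.8 and 45.3 in A549 Rec. EFNA1 (chr1:155127460-155134857), a ligand of Eph receptors, read 67.4, 93.6 and 177 against 86.1, 78.3 and 109. In both genes the replicate 3 libraries were the highest, and the groups overlapped. ADM, the vasodilator adrenomedullin, read 65.9, 72.2 and 84.6 against 58.4, 63.4 and 81.5. ANGPTL4 (chr19:8363289-8374373), an inhibitor of lipoprotein lipase, went the other way with 13.3, 25.2 and 3.18 against 17.4, 9.87 and 4.19. STC1, the hormone stanniocalcin, read 38.6, 40.4 and 19.4 against 30.8, 33.9 and 24.9. ANGPTL4 had the widest range of the 39 genes, 7.93 times between A549 MOCK replicate 2 and A549 MOCK replicate 3, on 29 to 260 reads.

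The nuclear genes of the list that act in mitochondria were even for the most part. FAM162A was the least so, at 1.30 times between its lowest and highest library. BNIP3, a receptor for the removal of mitochondria, read 64.4, 62.1 and 66.5 in A549 MOCK, against 61.7, 68.7 and 65.4 in A549 Rec. Its relative BNIP3L read 76.6, 73.3 and 68.1 against 79.1, 72.9 and 66.6. AK4, an adenylate kinase of the mitochondrial matrix, read 15.4, 15 and 16.3 against 15.9, 14.9 and 16.8. These 3 genes kept within 1.19 times, and their groups overlapped. FAM162A, a mitochondrial protein linked to cell death under hypoxia, read 36.2, 32.9 and 32.1 against 31.0, 32.1 and 27.8. BNIP3L overlaps several other genes in the deposited annotation.

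The genes of collagen modification act in the order in which a collagen is made: P4HA1 and P4HA2 hydroxylate its prolines, PLOD1 and PLOD2 its lysines, and LOX and LOXL2 open the way to cross-links outside the cell. P4HA1 read 112, 126 and 117 in A549 MOCK, against 112, 117 and 108 in A549 Rec. PLOD2 (chr3:146069440-146163653) read 154, 153 and 158 against 144, 138 and 149. For PLOD2 the 3 libraries of A549 Rec lay below the 3 of A549 MOCK on this scale, but not with TPM as deposited. PLOD2 was not alone in this order on this scale. KDM3A had it too (A549 Rec up to 14.68, A549 MOCK from 15.51), as did FAM162A by a narrow margin (up to 32.069 and from 32.073). The share of all tested genes with such an order was not counted. LOXL2 read 88.7, 97.5 and 129.6 against 75.3, 82.4 and 111, and overlaps ENTPD4 on the same strand in the deposited annotation. LOX (chr5:122063195-122078360) was low, at 2.65, 2.69 and 1.13 against 1.92, 1.53 and 0.609, on 13 to 64 reads. P4HA2 and PLOD1 lay at 17.8 to 25.3 and 89.5 to 98.1.

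Among the oxygen-dependent enzymes of chromatin, KDM3A, a demethylase of histone H3 lysine 9, read 15.6, 15.5 and 18.8 in A549 MOCK, against 14.1, 14.3 and 14.7 in A549 Rec. KDM4B lay at 7.99 to 9.26 and JMJD6 at 17.1 to 21.8. BHLHE40, a transcriptional repressor of the clock, was abundant at 285, 286 and 356 against 289.7, 283 and 334, while its relative BHLHE41 lay at 1.96 to 4.69. MXI1, an antagonist of MYC, read 20.9, 21.3 and 19.3 against 22.8, 19.5 and 20.7. The 2 BHLHE genes, close in sequence, thus differed by about 2 orders of magnitude in level. INSIG2, which holds back sterol synthesis, read 18.0, 15.8 and 12.1 against 15, 15.2 and 12.4.

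NDRG1 (chr8:133237171-133302022), a stress-induced gene used as a hypoxia marker, read 40.8, 58.4 and 19.9 in A549 MOCK, against 45.6, 43.7 and 22.5 in A549 Rec. ANKRD37, a small ankyrin-repeat gene, read 7.48, 5.32 and 6.75 against 5.82, 3.90 and 5.54. NDRG1 was lowest in both replicate 3 libraries, and ANKRD37 was not. Of the remaining genes, WSB1 lay at 25.5 to 44.4, ERO1B at 8.73 to 11.3, TMEM45A at 1.72 to 3.14 and PPFIA4 at 1.02 to 1.79.

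**Figure D2:**
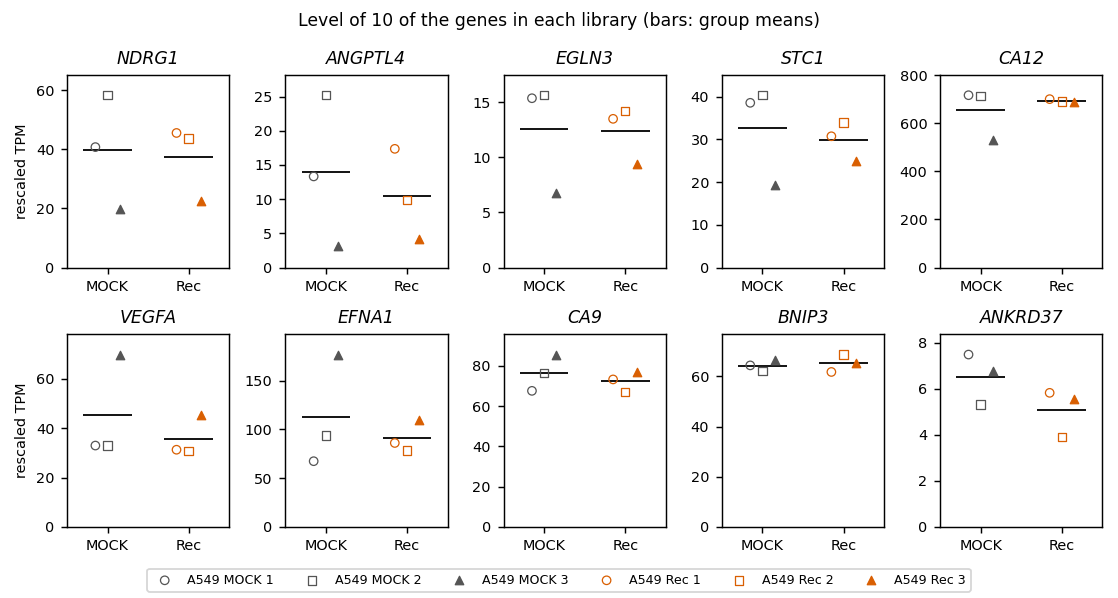
Level (vertical axis, rescaled TPM) of 10 of the genes in each of the 6 libraries, grouped as A549 MOCK and A549 Rec, with a symbol for each replicate number and a bar at each group mean. NDRG1, ANGPTL4, EGLN3 and STC1 are lowest, and VEGFA and EFNA1 highest, at replicate 3 of each group.

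To learn whether recoverin went with a change of the hypoxia genes, A549 Rec was compared with A549 MOCK by limma on log2(rescaled TPM + 1). A DEG was a gene that changed at least 2-fold at an adjusted p under 0.05. None of the 38 tested genes was a DEG, and none had an unadjusted p under 0.05 by limma (background 0.00556% and 2.53% of the 17999 tested genes, of which the only DEG was RCVRN itself). On recovered reads with voom weights (limma), the counts were also 0 and 0. Without both replicate 3 libraries 3 genes had an unadjusted p under 0.05 (background 6.34%), STC1 (−0.28), PLOD2 (−0.12) and LOXL2 (−0.24), with adjusted p from 0.639 to 0.718 by limma. The differences, A549 Rec minus A549 MOCK, ran from −0.42 (LOX) to 0.12 (TMEM45A) on the log2 scale. Their median was −0.073, against −0.022 over all tested genes, and 28 of the 38 were below 0, as were 57.5% of all tested genes. As these are bulk samples, fewer cells of a type and less RNA per cell cannot be told apart.

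The intervals show which sizes these libraries leave possible. For PLOD2, the gene with the lowest p, the level was 155 ± 2.42 (SD, n = 3) in A549 MOCK and 144 ± 5.66 in A549 Rec, a log2 difference of −0.11 (95% interval −0.24 to 0.023, limma, unadjusted p = 0.091, adjusted p = 0.9995). HIF1A differed by −0.011 (−0.26 to 0.24), CA9 by −0.073 (−0.32 to 0.17) and BNIP3 by 0.021 (−0.14 to 0.18). On this scale, a 2-fold change lay outside the interval of every machinery gene except EGLN2 (−1.25 to 0.84), and outside that of BNIP3. For the uneven genes the intervals were wide, at −1.95 to 1.55 for ANGPTL4, −1.04 to 0.98 for NDRG1, −1.0 to 0.48 for VEGFA and −1.23 to 0.38 for LOX. These 4 intervals reach a 2-fold decrease or pass it, and that of ANGPTL4 a 2-fold increase too. Changes of these sizes are thus not excluded for these genes.

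**Figure D3:**
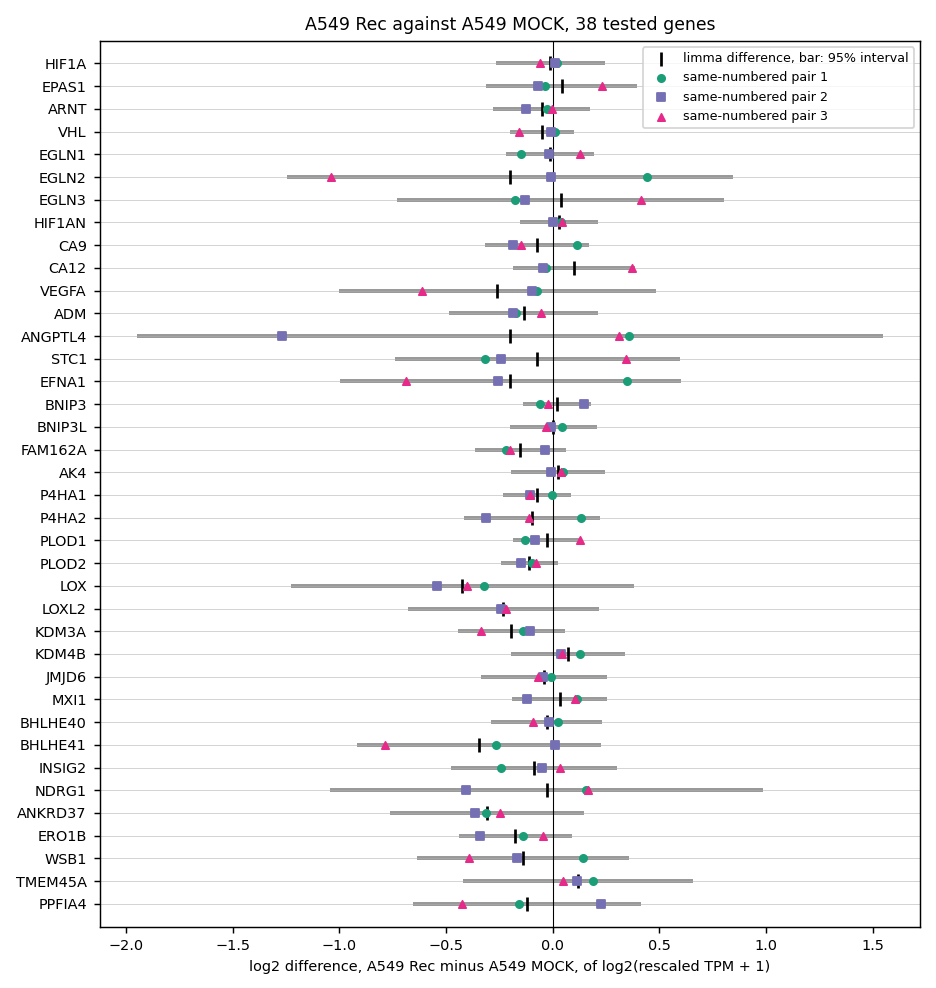
Log2 difference of A549 Rec minus A549 MOCK for the 38 tested genes (horizontal axis, log2(rescaled TPM + 1)). Vertical ticks are the limma differences with grey bars for their 95% intervals, and coloured symbols are the same-numbered pairs. All intervals cross 0, and those of ANGPTL4, EGLN2 and NDRG1 are the widest.

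Same-numbered libraries of the 2 groups deviated together most clearly at replicate 3 (correlation 0.297), and less at replicates 1 and 2 (0.102 and 0.147). Taking the numbers as pairs is an assumption, under which each gene was also read within its pair. A549 Rec was below A549 MOCK in all 3 pairs for 12 of the 38 genes (31.6%, background 15.4%) and above it in all 3 for 2 (5.26%, background 10.7%), while 24 were mixed. The 12 were ARNT, VEGFA, ADM, FAM162A, P4HA1, PLOD2, LOX, LOXL2, KDM3A, JMJD6, ANKRD37 and ERO1B. They include 4 of the 6 genes of collagen modification (background 15.4%), of which P4HA1 and PLOD2 were mixed with TPM as deposited. The 2 genes higher in all 3 pairs were KDM4B and TMEM45A. These counts follow the scaling. With TPM as deposited, 5 genes were below and 2 above in all pairs (background 9.67% and 13.1%), with quantile normalization 8 and 4 (12.3% and 13.6%), and with each library centred on its median gene 7 and 6 (10.9% and 14.8%). VEGFA, LOX, LOXL2, KDM3A and ANKRD37 were below in all pairs under all 4 scalings.

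When limma held the replicate number as a block, 3 of the 38 genes had an unadjusted p under 0.05 (background 5.08%), all lower in A549 Rec, and none passed the adjusted p. LOXL2 differed most evenly, by −0.23, −0.24 and −0.22 in pairs 1, 2 and 3, with a fitted difference of −0.23 (SE 0.041, limma with the block, unadjusted p = 0.0026, adjusted p = 0.881). PLOD2 differed by −0.098, −0.15 and −0.080 (unadjusted p = 0.041, adjusted p = 0.931 by limma with the block). ADM differed by −0.17, −0.19 and −0.053 (unadjusted p = 0.047, adjusted p = 0.931 by limma with the block). With TPM as deposited and the block, none of these was under an unadjusted p of 0.05. For LOXL2, the difference between replicate 3 and the other libraries of a group, 1.39 times in A549 MOCK and 1.41 times in A549 Rec, was larger than the difference between the groups.

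The replicate 3 libraries were then set against replicates 1 and 2 of their own group. Both replicate 3 libraries lay above all other 4 libraries for 13 of the 38 genes (34.2%, background 26.9%), below them for 11 (28.9%, background 14.4%), and on neither side for 14. The genes above were HIF1A, EPAS1, ARNT, EGLN2, HIF1AN, CA9, VEGFA, ADM, EFNA1, AK4, LOXL2, BHLHE40 and WSB1. Those below were EGLN3, CA12, ANGPTL4, STC1, BNIP3L, P4HA2, LOX, JMJD6, INSIG2, NDRG1 and TMEM45A. The genes so went in both directions, and their median difference was 0.023 on the log2 scale against 0.079 over all tested genes. The share of mitochondrial genes, which is highest in the same 2 libraries, moved with this contrast, and its part in the result was not tested.

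These counts depend on the scaling as well, since the replicate 3 libraries differ from the others in the median of all genes. With TPM as deposited, 3 genes were above and 23 below (background 6.29% and 44.1%), where the median of all tested genes was −0.19. Quantile normalization gave 10 and 12 (18.3% and 20.5%), and centring on the median gene 9 and 17 (14.1% and 26.9%). Above the other 4 libraries under all 4 scalings were 3 genes, EGLN2, VEGFA and EFNA1. Below under all 4 scalings were 10 genes, EGLN3, ANGPTL4, STC1, BNIP3L, P4HA2, LOX, JMJD6, INSIG2, NDRG1 and TMEM45A. The sign of the difference went with the scaling for 13 genes, HIF1A, ARNT, VHL, EGLN1, HIF1AN, CA9, BNIP3, AK4, PLOD1, PLOD2, KDM3A, BHLHE40 and ANKRD37. HIF1A was at 0.25 on the main scale and −0.045 with TPM as deposited. HIF1AN, CA9 and AK4 were above all other 4 libraries on the main scale and below them with TPM as deposited.

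The sizes set a few genes apart. ANGPTL4 in replicate 3 was at 0.165 of the mean of replicates 1 and 2 in A549 MOCK and at 0.307 in A549 Rec, a mean log2 difference of −1.83. NDRG1 was at 0.402 and 0.504 (−1.10), EGLN3 at 0.439 and 0.678 (−0.80), LOX at 0.423 and 0.353 (−0.77), and STC1 at 0.492 and 0.770 (−0.67). In the other direction stood EGLN2 at 3.57 and 1.30 times (0.94), VEGFA at 2.12 and 1.46 times (0.80) and EFNA1 at 2.2 and 1.33 times (0.78). Over all tested genes the median difference was likewise larger in A549 MOCK, at 0.11 against 0.044 in A549 Rec. CA12 was below for the most part in A549 MOCK (0.743, against 0.990 in A549 Rec).

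Several HIF targets did not go with these. BNIP3 differed by 0.039, P4HA1 by −0.055, PLOD2 by 0.059 and ANKRD37 by 0.13 on the log2 scale. CA9 differed by 0.19 on the main scale and by −0.10 with TPM as deposited. By role, the machinery had 5 of 8 genes above and 1 below on the main scale (background 26.9% and 14.4%), but 1 above and 3 below with TPM as deposited (6.29% and 44.1%). The signals had 3 of 5 above and 2 below, and 2 and 2 with TPM as deposited. ACGTG was found in a promoter of 5 of the 11 matched genes above, 3 of the 7 below and 10 of the 13 on neither side. Left out for want of a matched promoter were VEGFA and LOXL2 above, NDRG1, STC1, BNIP3L and JMJD6 below, and VHL on neither side.

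**Figure D4:**
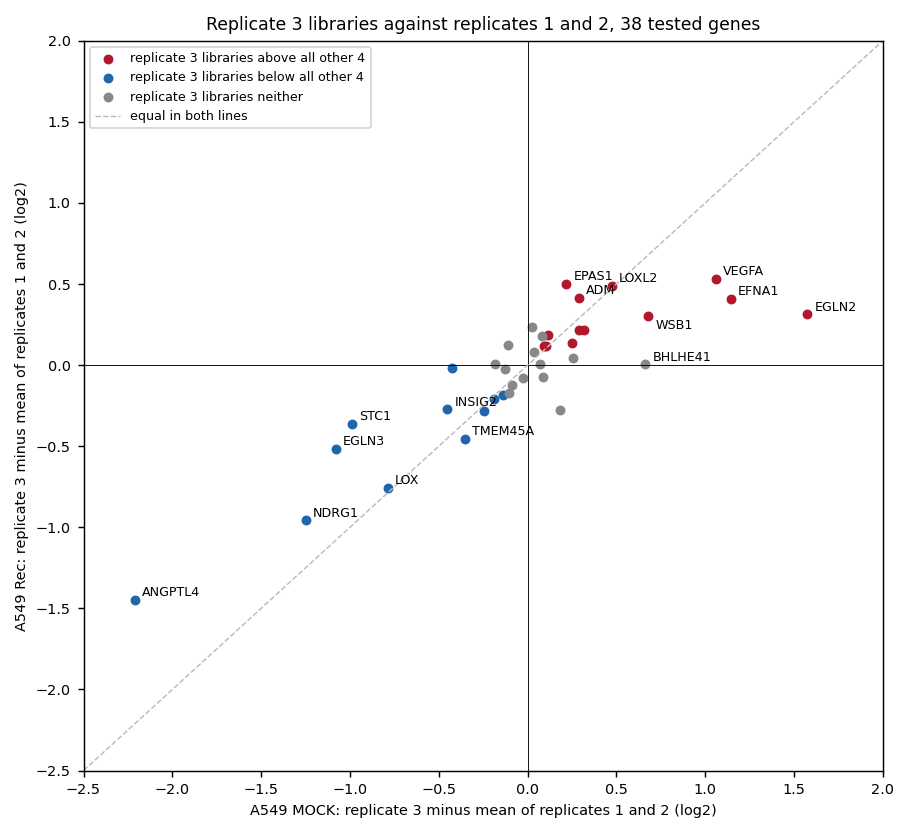
Log2 difference of the replicate 3 library from the mean of replicates 1 and 2 (log2(rescaled TPM + 1)) for each of the 38 tested genes, in A549 MOCK on the horizontal and in A549 Rec on the vertical axis, with colours for genes above, below or on neither side of the other 4 libraries. ANGPTL4 and NDRG1 lie at the lower left and EGLN2, VEGFA and EFNA1 at the right, and the dashed line marks equal differences in both.

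Genes of the hypoxia response outside the 39 were read from 3 further lists. Of 24 glycolytic HIF targets (transporters and enzymes from SLC2A1 to LDHA), none had an unadjusted p under 0.05 in A549 Rec against A549 MOCK by limma, and their median difference was 0.014. In the replicate 3 libraries 18 of the 24 (75%, background 14.4%) were below all other libraries and 2, SLC2A3 and PDK1, above (background 26.9%). The differences were small beside that of NDRG1, with a median of −0.20 and the largest in PFKFB4 (−0.38), which sets the level of an activator of glycolysis, and HK2 (−0.36), its first enzyme. Below were 20, 17 and 20 of the 24 with TPM as deposited, quantile normalization and median centring (background 44.1%, 20.5% and 26.9%). The largest differences of A549 Rec from A549 MOCK were those of HK2 (−0.21) and ENO2 (−0.13).

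Of 17 other hypoxia-responsive genes, 15 were tested. CXCR4 lay at or below 0.266. MIF was listed at 0 in all 6 libraries, and ALDOA of the glycolytic list at 1.26 to 3.68. Whether these values are levels or a matter of how reads were counted was not tested. HILPDA, which coats lipid droplets and restrains their breakdown, read 43.1, 53.6 and 23.4 against 53.2, 52.9 and 34.2, a difference of 0.27 between the groups. In the replicate 3 libraries, against the same background, 4 of the 15 (26.7%) were below (HILPDA by −0.81, RAB20 by −0.46, ZNF395 and FUT11) and 3 (20%) above (PLIN2, PLAUR and VLDLR). With TPM as deposited 10 were below and 0 above (background 44.1% and 6.29%), and with either other scaling 6 and 1.

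Among 8 partners of the machinery, 7 were tested, and none had an unadjusted p under 0.05 by limma. The coactivators EP300 and CREBBP differed most between the groups, by −0.17 and −0.12. In the replicate 3 libraries, EP300 (0.33), CREBBP (0.30) and CUL2 of the VHL ligase were above, and ELOB and RBX1 of the same ligase below. These shares (42.9% above and 28.6% below) follow the scaling. Under TPM as deposited 0 were above and 5 below (background 6.29% and 44.1%), under quantile normalization 3 and 3, and under median centring 1 and 3.

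**Figure D5:**
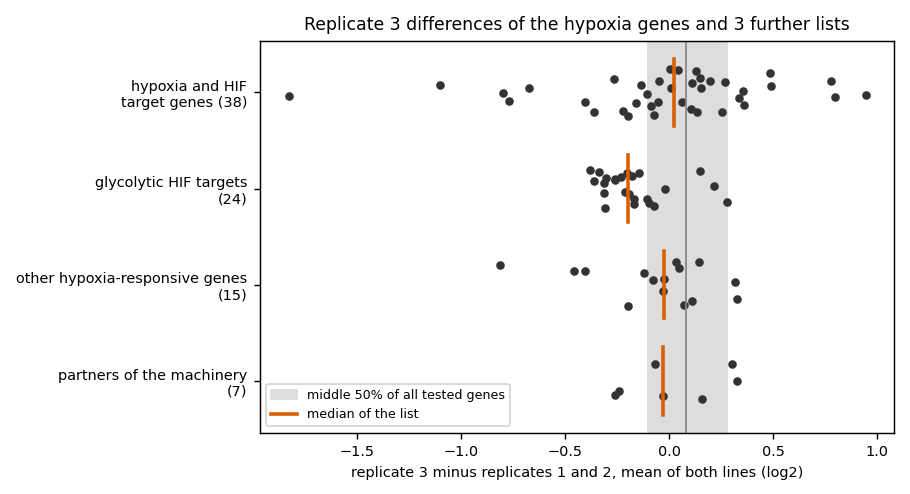
Log2 difference of replicate 3 from replicates 1 and 2, as the mean over A549 MOCK and A549 Rec (horizontal axis), for each tested gene of the 39 hypoxia genes and of the 3 further lists. Bars mark list medians, and the grey band holds the middle 50% of all tested genes around their median of 0.079, so that the glycolytic genes sit together to the left (median −0.20) and the hypoxia genes lie on both sides.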

How the data were processed

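Total RNA of A549 Rec and A549 MOCK (3 libraries each) was sequenced from NEBNext Ultra II Directional libraries, and the reads were trimmed (Trimmomatic 0.38), mapped (HISAT2 2.1.0) and counted per gene (featureCounts 1.6.3) per the submitters' processing notes. Those notes list the mouse builds GRCm38 and mm10, the paper's methods GRCh38, and the gene identifiers and coordinates of the table are human GRCh38. The strand setting of the counting and the annotation release are not given in the sources used here. The authors deposited TPM, which sum to 1000000 per library, and columns not matched to a sample numbered 0.

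TPM were rescaled here over the 58639 genes outside the mitochondrial genome (37 genes left out). Genes at 1 or more in at least 3 of the 6 libraries (17999) were tested with limma 3.58.1 in R 4.3.3 (lmFit, eBayes with trend) on log2(value + 1), a scale that understates changes of low genes, with Benjamini-Hochberg adjustment. Whole reads were recovered from the TPM for 29900 of 29900 detected genes (tolerance 0.01, gene length fitted). The length equalled the GENCODE v44 exon length for 14535, and on simulated data 99.1% of 7812 genes were recovered exactly. In simulated data of 17649 genes for A549 Rec against A549 MOCK, limma called 188 of 200 genes changed 3-fold and 14 others. The simulated reads had the same dispersion for every gene and no shift of the replicate 3 libraries. These counts therefore do not give the power in the real libraries.

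In the labels, both groups have replicates 1, 2 and 3. Deviations from the group means of same-numbered libraries correlated across genes at 0.102, 0.147 and 0.297, so that the numbers were taken to pair the samples, as a hint from the data and not from the labels. For replicate 1 the number did not single out its pair, as A549 MOCK replicate 1 correlated with A549 Rec replicate 2 at 0.101. Deviations within a group sum to 0, so that a shift shared by the replicate 3 libraries raises these correlations under either matching of replicates 1 and 2. The values 0.102 and 0.147 therefore cannot decide whether those libraries are pairs. The unpaired fit was the main one.

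The 39 genes, the further lists, their roles and the tests were chosen with earlier results of these data known. Values per library are given for the machinery, for 20 fixed targets and for any gene with an unadjusted p under 0.05 in any fit, and for each further list for the 2 genes of largest difference. The others are given by range, and further genes behind small counts are named after their values were seen. A result of the list of other hypoxia-responsive genes is not reported here. Alternatives were TPM as deposited, quantile normalization, a pseudocount of 0.1, no filter, no variance trend, the replicate block, and leaving out each library or both of replicate 3. Added after seeing the data were voom on recovered reads with and without the block, TPM as deposited with the block, and centring each library on its median gene.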

Additional observations from a re-analysis of the deposited data

How the results depend on the processing

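None of the 28 genes followed one by one passed an adjusted p of 0.05 by limma under any of the 16 alternatives that give a p for single genes, while the counts at an unadjusted p and those of direction moved with the setting. DEGs among all genes numbered 1 (RCVRN) in the main fit, 7 with no variance trend (RCVRN and small RNA genes for the most part), 2 without both replicate 3 libraries (RCVRN and AC090498.1), 2 with voom and the replicate block (RCVRN and ITPK1), and 1 to 2 with 1 library left out, the 2 without A549 Rec replicate 3. Hypoxia genes with an unadjusted p under 0.05 numbered 0 in the main fit (2.53% of all tested genes), 3 with the replicate block (5.08%), 3 without both replicate 3 libraries (6.34%), 5 with voom and the block (4.96%; VEGFA, PLOD2, LOX, LOXL2 and KDM3A, lowest adjusted p 0.396 by limma), and 0 to 1 with 1 library left out, the 1 being STC1 without A549 MOCK replicate 3 (4.39%). The block changed no other call among the 39 genes, and of the further lists it took TFRC from an unadjusted p of 0.092 to 0.048 (adjusted p 0.931, limma). Below in all pairs were 12 genes in the main setting, 5 with TPM as deposited and 7 with median centring, and above 2, 4 with quantile normalization and 6 with median centring. In the replicate 3 contrast, 3 were above and 23 below with TPM as deposited, and 17 below with median centring, against 13 and 11.

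Signs turned for genes close to 0 or uneven between libraries. On the log2 scale, A549 Rec minus A549 MOCK, TPM as deposited gave 0.034 for HIF1A, 0.031 for EGLN1, 0.012 for NDRG1 and 0.016 for BHLHE40, with or without the replicate block. Quantile normalization gave 0.011 for NDRG1, and voom with the block −0.023 for EGLN3. Without both replicate 3 libraries the difference was 0.014 for HIF1A, −0.052 for EPAS1, 0.0013 for VHL, 0.22 for EGLN2, −0.15 for EGLN3, −0.039 for CA12, −0.0023 for MXI1, 0.0035 for BHLHE40 and 0.047 for EFNA1. With 1 library left out the ranges were −0.082 to 0.086 for HIF1A, −0.12 to 0.13 for EPAS1, −0.11 to 0.026 for ARNT, −0.092 to 0.034 for EGLN1, −0.53 to 0.32 for EGLN2, −0.32 to 0.22 for EGLN3, −0.011 to 0.057 for HIF1AN, −0.45 to 0.31 for NDRG1, −0.16 to 0.010 for CA9, −0.045 to 0.17 for CA12, −0.44 to 0.093 for VEGFA, −0.016 to 0.059 for BNIP3, −0.057 to 0.065 for BNIP3L, −0.24 to 0.031 for INSIG2, −0.024 to 0.081 for MXI1, −0.10 to 0.077 for BHLHE40, −0.94 to 0.39 for ANGPTL4, −0.014 to 0.068 for AK4, −0.40 to 0.11 for STC1 and −0.51 to 0.18 for EFNA1. The cause was not tested. Depth limits the low genes, LOX (13 to 64 reads) with the fewest reads of the 39, and counting error is the only error these reads cover.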
